A study of Arabidopsis thaliana with 23 samples.

Results

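The transcriptome of axillary tissue from intact plants was set against that of whole seedlings of Arabidopsis thaliana Col-0. The 3 libraries labelled Intact_WT came from wild type plants with the main shoot in place, and held buds together with the rosette leaf axil that carries them. The 3 libraries labelled DMSO came from whole wild type seedlings grown for 7 days on plates with DMSO, the solvent control of the series. These 6 libraries were taken from 23 samples, and the genes were the 32224 present in both deposited count tables. Both groups grew at 22 °C with 16 h of light and 8 h of dark, and the labels describe sowing on plates with 1% sucrose for every sample. What the intact plants stood in when they were harvested is not stated, so differences in medium and nutrients cannot be told apart from tissue either. The age of the intact plants is not given in the labels, and neither is whether the 3 libraries within each group represent different plants. Tissue, age, the solvent, the labelled batch and the count table all split the 6 libraries the same way and cannot be told apart. The differences below therefore describe these libraries as tissue profiles, and only differences of at least 4-fold are described as such. The other RNA-seq groups, used only to see how the same genes read elsewhere, were Decapitated_WT (wild type axillary tissue after the main shoot was cut below its lowest cauline node), Intact_brc1-2 (axillary tissue of the brc1-2 mutant) and rac-GR24 (seedlings on 2.5 µM of that synthetic strigolactone), with 3 libraries each. In the deposited counts a replicate label of Intact_brc1-2 is repeated, and which replicate the repeated columns hold is not settled. The Intact_brc1-2 columns were therefore used only as a group.

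Axillary buds form in the axils of leaves from small groups of meristem cells, set off from neighbouring organs by boundary cells. Whether a bud grows out is controlled by the TCP transcription factor BRC1 inside it, which strigolactone and shade favour and which auxin from the main shoot acts upon indirectly. After the floral transition, axillary meristems of Arabidopsis take on inflorescence identity. A whole seedling holds cotyledons, first leaves, hypocotyl and the root system, so it includes root hairs, root endodermis and root tips that axillary tissue lacks.

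Total counts ran from 50522668 to 57372797 in Intact_WT libraries and from 31209344 to 44442493 in DMSO libraries. A count of 3, the floor used for a gene with none, corresponded to 0.0523 to 0.0594 CPM (counts per 1000000 counts of the shared genes) in Intact_WT libraries and to 0.0675 to 0.0961 CPM in DMSO libraries. After filtering of low counts, 21754 genes entered the edgeR quasi-likelihood fit. Genes were called axil-high where the Benjamini-Hochberg adjusted p was below 0.05, mean CPM was at least 4-fold higher in Intact_WT and every Intact_WT library lay above every DMSO library. Seedling-high genes met the mirror image of that rule. Of the genes tested, 1653 (7.6%) were axil-high and 1862 (8.56%) were seedling-high, 3515 (16.2%) together. Counts of list members below are to be read beside these shares. Without the fold and overlap criteria, edgeR called 8504 genes (39.1%) higher and 8430 (38.8%) lower in Intact_WT, so the test alone separates little in this contrast. Means are given ± SD with n = 3 libraries in each group, and log2 fold changes ± SE are those of edgeR, Intact_WT over DMSO, with SE taken back from the F statistic. Because these are bulk samples, fewer cells of a type and less RNA per cell cannot be told apart.

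The axil-high genes made up a larger share of their tissue's counts than the seedling-high genes did of theirs. They took 8.50% to 8.60% of all counts in Intact_WT libraries, against 0.994% to 1.05% in DMSO libraries. Seedling-high genes took 0.436% to 0.440% of counts in Intact_WT libraries, against 5.17% to 5.45% in DMSO libraries. The seedling-high differences were the larger in fold, with a median of 15.8-fold against 8.75-fold for axil-high genes. At least 100-fold differences numbered 83 among axil-high and 238 among seedling-high genes. The other tissue had no count at all for 138 axil-high and 227 seedling-high genes, which therefore passed the filter through the higher group alone. Only 3 genes passed the fold and the test with libraries that overlapped. The median log2 ratio of CPM over all genes tested was 0.11.

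**Figure D1:**
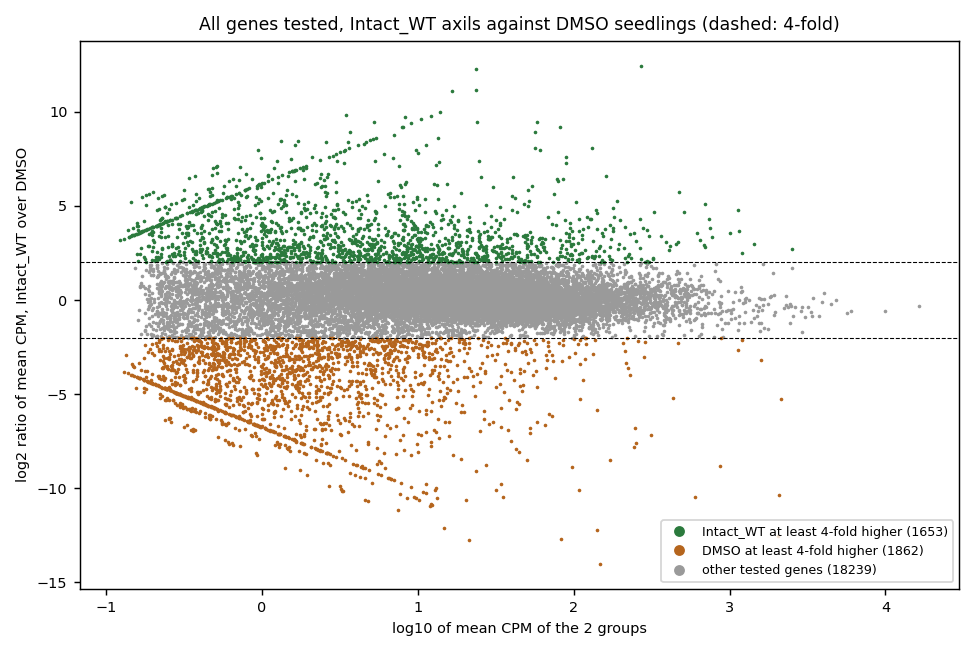
Each dot is 1 of the 21754 genes tested, with the log10 of the mean CPM of both groups on the horizontal axis and the log2 ratio of mean CPM, Intact_WT over DMSO, on the vertical axis; dashed lines mark 4-fold. The 1653 axil-high genes lie above and the 1862 seedling-high genes below, and the straight diagonal edges are genes with no count in the lower group, whose ratio was computed against a floor of 3 counts.

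Some kinds of gene moved with the tissue split as a class, whatever their function. Of 461 tested genes with more than 50% of their exon bases on the opposite strand of another gene, 260 (56.4%) were axil-high and 14 (3.04%) seedling-high. Of the 16003 genes with no exon base opposite another gene, 1092 (6.82%) were axil-high and 1567 (9.79%) seedling-high. Of 523 genes annotated as long noncoding RNA, 174 (33.3%) were axil-high and 94 (18%) seedling-high. Small structural RNAs and miRNA precursors went the other way, with 11 axil-high and 116 seedling-high of 214. Their summed level was 225 to 230.0 CPM in Intact_WT and 2666 to 3032 CPM in DMSO libraries, with 1977 to 2840 CPM in rac-GR24 seedlings and 226 to 263 CPM in the other axillary libraries. Genes with locus tags starting AT2G07, on the part of chromosome 2 known to carry an insertion of mitochondrial DNA, were seedling-high in 68 of 81 cases and axil-high in 1. They summed to 383 to 392 CPM in Intact_WT and to 2863 to 3286 CPM in DMSO libraries. How RNA was selected for the libraries and whether reads were counted by strand are not stated in the labels, and the part of either in these classes was not tested. Among 19447 protein-coding genes with at most 20% of exon bases shared and outside that block, 1167 (6%) were axil-high and 1518 (7.81%) seedling-high. This restriction was chosen after the values were seen, and genes named below that lie outside it are marked as such.

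**Figure D2:**
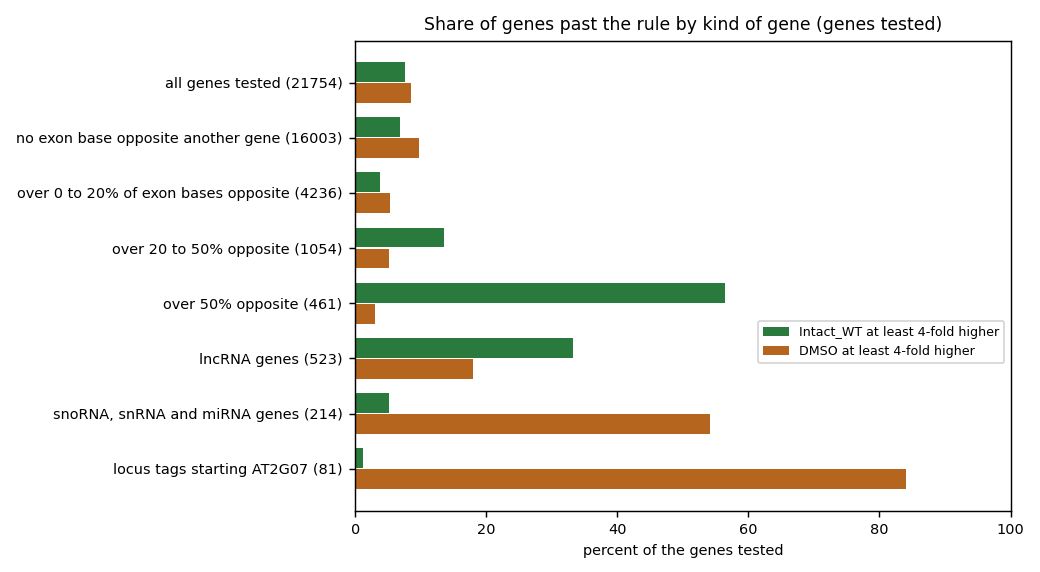
Bars give the percent of tested genes that were axil-high (Intact_WT at least 4-fold higher) and seedling-high (DMSO at least 4-fold higher) in each kind of gene, with the number tested in parentheses; "opposite" means exon bases that lie on the other strand of another gene. The axil-high share was 56.4% where more than 50% of exon bases lay opposite another gene, and the seedling-high share was 54.2% for small RNA genes and 84% for locus tags starting AT2G07.

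BRC1, its paralog BRC2 and the homeobox genes that BRC1 activates were read first, as the genes the series is built around. BRC1 (AT3G18550; TAIR10 chromosome 3, 6383289 to 6385815, plus strand) had 392, 373 and 423 counts in Intact_WT libraries, against 0, 0 and 2 counts in DMSO libraries. The ratio of its counts scaled by library totals was 403 (95% counting interval 111 to 3331), and edgeR gave an adjusted p of 1.0e-10. Counting intervals and floors cover counting error only, and p-values measure only the spread between these libraries, which may be technical. BRC1 was thus present in every axil library and close to undetected in DMSO seedlings, with 7.76, 6.50 and 7.79 CPM in axils, against 0, 0 and 0.0450 CPM in seedlings. BRC2 (TAIR10 chromosome 1, 25845892 to 25850131, minus strand), also of the TCP family, had 4.99, 4.53 and 4.27 CPM in axils, against 0.117, 0.449 and 0.293 CPM in seedlings (16.1-fold; log2 3.91 ± 0.30; edgeR adjusted p = 2.3e-08). HB21, an HD-ZIP transcription factor gene downstream of BRC1, had 4.73, 6.29 and 5.73 CPM in axils, against 0.175, 0.513 and 0.315 CPM in seedlings (16.7-fold). HB53, of the same group, had 2.85, 3.87 and 2.99 CPM in axils, against 0.175, 0.192 and 0.315 CPM in seedlings (14.2-fold). In each of these 4 genes the lowest axil library lay above the highest seedling library.

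The remaining members of this module stayed short of 4-fold. HB40, the third HD-ZIP gene, had 4.30, 3.99 and 3.501 CPM in axils, against 1.72, 0.769 and 1.42 CPM in seedlings. NCED3, which encodes the key enzyme in making abscisic acid, had 4.49, 4.17 and 4.59 CPM in axils, against 9.44, 11.3 and 11.8 CPM in seedlings, and was the only member with higher values in seedlings. Read per length, the 6 genes were all low in axils, with 4.99 TPM for BRC1, 8.06 TPM for HB21, 1.69 TPM for BRC2, 5.25 TPM for HB53, 6.14 TPM for HB40 and 2.47 TPM for NCED3.

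The same genes read differently in the other axillary libraries. BRC1 had 1.77, 1.75 and 1.62 CPM in Decapitated_WT, 0.0396, 0.0713 and 0.0327 CPM in Intact_brc1-2 and 6.66, 3.69 and 2.82 CPM in rac-GR24 seedlings. Every rac-GR24 library thus lay above the decapitated and mutant axils for BRC1. The ratio of Decapitated_WT to rac-GR24, 0.391, was short of 4-fold, and neither difference was tested. BRC2 had 3.84, 4.72 and 5.10 CPM in Decapitated_WT, 6.47, 6.15 and 6.18 CPM in Intact_brc1-2 and 0.143, 0.527 and 0.0300 CPM in rac-GR24 seedlings, so that its 9 axillary libraries all lay above its 6 seedling libraries. HB21 had 0.614, 0.602 and 0.907 CPM in Decapitated_WT and 0.475, 0.624 and 0.212 CPM in Intact_brc1-2, against 1.84, 1.77 and 1.201 CPM in rac-GR24 seedlings. HB53 had 0.261, 0.159 and 0.295 CPM in Decapitated_WT and 0.119, 0.196 and 0.147 CPM in Intact_brc1-2, against 0.692, 0.843 and 0.420 CPM in rac-GR24 seedlings. Of the 4 axil-high members, only BRC2 passed the fold and overlap rule in Decapitated_WT against rac-GR24 and in Intact_brc1-2 against rac-GR24. Intact_brc1-2 carries a mutation in BRC1 itself, and the part of that mutation in these values was not tested.

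**Figure D3:**
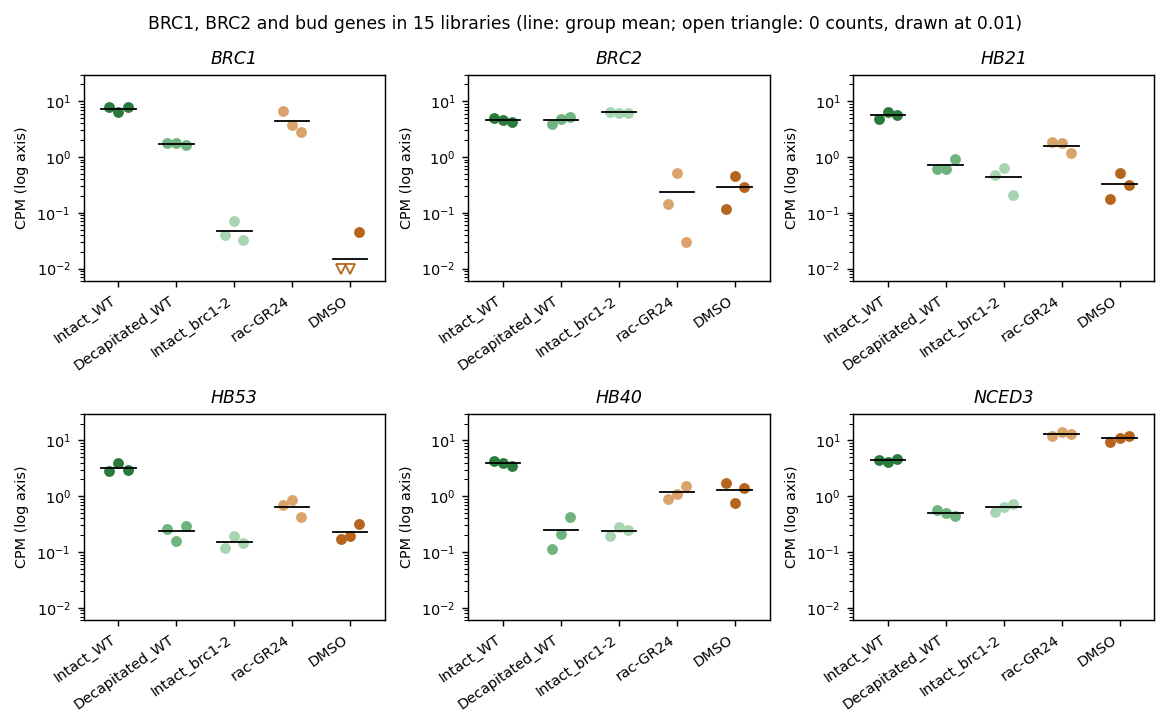
Points are the CPM (log axis) of each of 15 libraries for BRC1, BRC2, HB21, HB53, HB40 and NCED3, from left to right in Intact_WT, Decapitated_WT and Intact_brc1-2 axils and in rac-GR24 and DMSO seedlings; lines are group means and open triangles are libraries with 0 counts. BRC1, HB21 and HB53 have their highest group mean in Intact_WT, BRC2 separates the 9 axillary from the 6 seedling libraries, and NCED3 is highest in the seedlings. For BRC1 the groups overlap, with 6.66 CPM in rac-GR24 replicate 1 and 6.50 CPM in Intact_WT replicate 2.

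Some genes of the shoot meristem and of organ boundaries were higher in axils. Of 28 listed genes 26 passed the filter, of which 6 were axil-high and none seedling-high, and their median log2 ratio was 1.26 against 0.11 over all genes tested. LSH4, an ALOG-family gene active in boundary cells, had 96.0, 102 and 104 CPM in axils, against 2.77, 2.47 and 2.79 CPM in seedlings (37.6-fold; log2 5.13 ± 0.07; edgeR adjusted p = 1.5e-15). STM, the KNOX homeobox gene that keeps meristem cells undifferentiated, had 45.2, 45.6 and 47.1 CPM in axils, against 3.64, 5.13 and 3.49 CPM in seedlings (11.2-fold). Libraries of each tissue lay close together for both genes, far from those of the other tissue. The BELL partner genes of STM were also axil-high, PNY with 39.1 ± 1.7 CPM in axils and 7.02 ± 0.41 CPM in seedlings and PNF with 10.1 ± 0.43 CPM in axils and 2.46 ± 0.70 CPM in seedlings. PNF lay at the limit, and its log2 ratio was short of 4-fold without DMSO replicate 3 (1.85) and with CPM scaled by TMM (1.94) or by DESeq2 size factors (1.92). The boundary NAC genes CUC1 and CUC2 had 2.73 ± 0.28 and 3.27 ± 0.26 CPM in axils, and 0.387 ± 0.11 and 0.551 ± 0.097 CPM in seedlings. All 6 axil-high genes passed 4-fold without overlap in Decapitated_WT against rac-GR24, and 4 did in Intact_brc1-2 against rac-GR24.

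Genes known to found axillary meristems stayed short of 4-fold. LAS, a GRAS gene needed for axillary meristem formation, had 0.864 ± 0.11 CPM in axils and 1.90 ± 0.52 CPM in seedlings. RAX1 had 1.23 ± 0.11 CPM in axils and 1.19 ± 0.13 CPM in seedlings, and RAX2 had 2.43 ± 0.24 CPM in axils and 8.13 ± 0.88 CPM in seedlings, both MYB genes with the same role. The stem cell genes WUS and CLV3 did not pass the filter on low counts, and WUS had 0.0396, 0.296 and 0.240 CPM in axils, with no count in seedlings. CLV1, the receptor of the CLV3 peptide, had 77.9 ± 0.86 CPM in axils and 66.6 ± 3.2 CPM in seedlings.

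The axils carried transcripts of the inflorescence and of flowers. Of 33 listed flowering and MADS-box genes 29 passed the filter, 13 were axil-high and 1 was seedling-high, with a median log2 ratio of 1.58. AP1, which confers floral meristem identity, had 484, 539 and 486 counts in axils and no count in any DMSO library, at least 341-fold higher against a floor of 3 counts over the seedling group. LFY, the other principal floral identity gene, had 4.59, 5.49 and 3.96 CPM in axils, against 0.175, 0 and 0.0450 CPM in seedlings (63.9-fold). Both genes were detected in every axil library. AGL24, a flowering promoter, had 65.4 ± 2.5 CPM in axils and 2.15 ± 0.15 CPM in seedlings. TFL1, which keeps inflorescence meristems indeterminate, had 15.2 ± 0.49 CPM in axils and 0.944 ± 0.29 CPM in seedlings. The floral organ identity genes SEP2, AP3, PI and AG were axil-high as well, at 5.88 ± 0.79, 4.65 ± 0.19, 5.54 ± 0.20 and 1.81 ± 0.32 CPM in axils, against 0.170 ± 0.047, 0.186 ± 0.13, 0.264 ± 0.074 and 0.188 ± 0.19 CPM in seedlings. FUL, CAL, FD, AGL42 and SEP1 completed the 13, and 35.8% of the exon bases of SEP1 are shared with another gene.

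Not all flowering genes followed. SOC1, an integrator of flowering signals, had 59.9 ± 3.1 CPM in axils and 16.6 ± 2.8 CPM in seedlings, just under 4-fold. SEP3 had 4.83 ± 0.018 CPM in axils and 6.89 ± 1.1 CPM in seedlings, and the florigen gene FT had 0.151 ± 0.13 CPM in axils and 0.385 ± 0.100 CPM in seedlings. SMZ, a repressor of flowering from the AP2 family, was the seedling-high gene of the list, with 2.27 ± 0.085 CPM in axils and 9.56 ± 0.29 CPM in seedlings, and overlaps another gene over 30.6% of its exon length. Pollen and tapetum genes were scarce in both tissues: 4 of 14 passed the filter, none was axil-high and 1 was seedling-high. The list summed to 8.51 to 9.80 CPM in axils and to 4.57 to 6.44 CPM in seedlings. AMS, the seedling-high member, averaged 0.103 CPM in axils and 0.709 CPM in seedlings, but had 5.11, 4.39 and 4.49 CPM in Intact_brc1-2.

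The SPL family includes genes that promote the adult phase and rise as miR156 declines with age, though not all of its members do. Of the 9 listed SPL genes that passed the filter, 4 were axil-high. SPL8 had 15.1, 14.2 and 14.5 CPM in axils, against 0.670, 0.192 and 0.428 CPM in seedlings (33.9-fold). SPL9 had 36.2 ± 2.0 CPM in axils and 5.58 ± 0.72 CPM in seedlings, and SPL4 had 14.4 ± 0.81 CPM in axils and 1.91 ± 0.26 CPM in seedlings. SPL3 was axil-high at 0.614 ± 0.20 CPM, against 0.0709 ± 0.062 CPM in seedlings, but 97.3% of its exon bases are shared with another gene. SPL10 and SPL11 had 18.5 ± 0.34 and 10.6 ± 0.51 CPM in axils, and 17.0 ± 1.9 and 7.69 ± 1.1 CPM in seedlings. SPL13A and SPL13B are near-identical copies that counting can split, and SPL13B varied from 0.0697 to 4.73 CPM between the axil libraries.

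Of the strigolactone and karrikin genes, 3 of 15 were axil-high and none seedling-high, with a median log2 ratio of -0.01. The shares over all genes tested were 7.6% axil-high and 8.56% seedling-high. SMXL8, which encodes one of the repressors degraded in strigolactone signalling, had 39.6, 40.8 and 39.9 CPM in axils, against 3.495, 3.91 and 2.61 CPM in seedlings (12.02-fold). MAX4, a carotenoid cleavage dioxygenase gene of strigolactone synthesis, had 5.70, 6.14 and 6.50 CPM in axils, against 0.816, 1.31 and 1.04 CPM in seedlings (5.80-fold), and MAX3, which acts before it, had 0.772, 1.25 and 0.977 CPM in axils, against 0.291, 0.0641 and 0.0450 CPM in seedlings. The axil libraries lay above all seedling libraries in these 3 genes. Receptor genes were closer between tissues, with 53.0 ± 1.8 CPM in axils and 69.0 ± 1.4 CPM in seedlings for D14, 33.4 ± 0.43 CPM in axils and 33.6 ± 1.5 CPM in seedlings for the F-box gene MAX2 and 52.1 ± 0.50 CPM in axils and 46.8 ± 1.8 CPM in seedlings for the karrikin receptor gene KAI2.

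Auxin and cytokinin genes went in both directions, and their counts stand beside 7.6% axil-high and 8.56% seedling-high over all genes tested. In the auxin list, 1 of 24 was axil-high and 5 were seedling-high. YUC8, which encodes an auxin biosynthesis enzyme, had 0.455, 0.349 and 0.332 CPM in axils, against 10.1, 8.33 and 10.8 CPM in seedlings (25.8-fold higher in seedlings), and the early auxin response gene IAA29 had 0.396, 0.244 and 0.332 CPM in axils, against 3.47, 3.97 and 3.33 CPM in seedlings. YUC9 and IAA5 were also seedling-high, as was IAA1, whose log2 ratio of -1.91 without Intact_WT replicate 1 was short of 4-fold; leaving out DMSO replicate 1 or 2 gave -1.99 and -1.97. YUC1 was the axil-high member, with 1.05, 1.22 and 1.14 CPM in axils, against 0.0583, 0.192 and 0.518 CPM in seedlings, and its log2 ratio was short of 4-fold without DMSO replicate 1 (1.68) or 2 (1.98). In the cytokinin list, 3 of 22 were axil-high and 3 seedling-high. CKX6 and CKX1, which encode cytokinin oxidases, had 4.42 ± 0.53 and 17.43 ± 0.66 CPM in axils, against 0.0592 ± 0.077 and 1.62 ± 0.34 CPM in seedlings, with 91.5% and 35.2% of exon bases shared with another gene. ARR3, a type-A response regulator gene, had 0.0396, 0.0697 and 0.221 CPM in axils, against 2.74, 2.50 and 3.02 CPM in seedlings (24.97-fold higher in seedlings), whereas ARR15, of the same class, had 21.2, 19.97 and 24.0 CPM in axils, against 5.04, 5.48 and 5.42 CPM in seedlings. ARR15 fell short of 4-fold when CPM was scaled by TMM (log2 ratio 1.94) or by DESeq2 size factors (1.92), and without Intact_WT replicate 3 (1.95) or DMSO replicate 1 (1.99). IPT7, a cytokinin synthesis gene, had 0.0986 ± 0.0062 CPM in axils and 1.27 ± 0.28 CPM in seedlings, and LOG7, which acts after it, had 1.61 ± 0.19 CPM in axils and 11.3 ± 2.6 CPM in seedlings.

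Genes of glucosinolate synthesis were higher in axils. These sulfur compounds defend plants of the cabbage order and are cleaved by myrosinases. Of 20 listed genes that passed the filter, 11 were axil-high and none seedling-high, with a median log2 ratio of 2.21. The 21 genes of the list summed to 12136 to 12216 CPM in Intact_WT libraries and to 2148 to 2272 CPM in DMSO libraries. BCAT4, the first enzyme of methionine chain elongation, had 1351, 1387 and 1312 CPM in axils, against 38.0, 31.3 and 47.0 CPM in seedlings (34.9-fold), and overlaps another gene over 21.2% of its exon length. MAM1, which extends the chain, had 1396, 1385 and 1420.2 CPM in axils, against 80.4, 63.5 and 71.1 CPM in seedlings (19.5-fold; log2 4.18 ± 0.09; edgeR adjusted p = 3.1e-14). The axil libraries of both genes differed from each other by far less than from the seedling libraries. CYP79F1, which commits the elongated amino acid to the pathway, had 969, 996 and 989.5 CPM in axils, against 45.3, 33.6 and 37.4 CPM in seedlings (25.4-fold). CYP79B3 of the tryptophan-derived branch had 144 ± 2.9 CPM in axils and 21.0 ± 0.36 CPM in seedlings. The myrosinase gene TGG2 had 2140.1 ± 22 CPM in axils and 166 ± 5.7 CPM in seedlings, and MYB29, a regulator of the methionine-derived branch, had 189.6 ± 1.4 CPM in axils and 23.2 ± 2.2 CPM in seedlings. Of the 11 genes, 6 passed 4-fold without overlap in Decapitated_WT against rac-GR24 and 6 in Intact_brc1-2 against rac-GR24. MAM1 had 779, 773 and 784 CPM in Decapitated_WT and 511, 511 and 525 CPM in Intact_brc1-2.

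Jasmonate-responsive defence genes were higher in axils too. Of 16 listed, 14 passed the filter, 7 were axil-high and none was seedling-high, with a median log2 ratio of 2.35. VSP2, a vegetative storage protein gene used as a jasmonate marker, had 264, 257 and 264 CPM in axils, against 0.932, 1.06 and 0.878 CPM in seedlings (274-fold; log2 8.01 ± 0.08; edgeR adjusted p = 5.9e-17). Its neighbour VSP1 had 122, 123.4 and 117 CPM in axils, against 0.233, 0.833 and 0.405 CPM in seedlings (246-fold). The 2 VSP genes are close paralogs, and how reads were divided between them is not stated. The defensin genes PDF1.2A and PDF1.2C, again close paralogs, had 178 ± 8.2 and 113 ± 5.1 CPM in axils, against 1.15 ± 1.6 and 0.422 ± 0.40 CPM in seedlings. THI2.1, a thionin gene, had 330, 418 and 409 counts in axils, against 0, 2 and 0 counts in seedlings, a ratio of 392 (95% counting interval 108 to 3244). ORA59, which joins jasmonate and ethylene signals, had 19.4 ± 0.40 CPM in axils and 2.91 ± 0.17 CPM in seedlings. PDF1.2A also varied among axillary groups, at 31.0, 29.6 and 32.5 CPM in Decapitated_WT and 5.25, 5.64 and 4.397 CPM in Intact_brc1-2. Of the 7 axil-high genes, 5 passed 4-fold without overlap in Decapitated_WT against rac-GR24 and 4 in Intact_brc1-2 against rac-GR24.

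Salicylate-responsive genes were axil-high in 6 of 15 and seedling-high in 2. WRKY70 had 41.1, 41.1 and 38.3 CPM in axils, against 4.60, 2.98 and 4.82 CPM in seedlings (9.72-fold). NIMIN1, which encodes a protein that binds the salicylate regulator NPR1, had 2.30, 2.53 and 2.80 CPM in axils, against 0.146, 0 and 0.0450 CPM in seedlings (40.0-fold). The pathogenesis-related genes PR1, PR2 and PR5 had 3.67 ± 0.46, 16.2 ± 1.5 and 22.6 ± 0.84 CPM in axils, against 0.364 ± 0.33, 2.02 ± 1.2 and 4.87 ± 0.23 CPM in seedlings. ALD1 and FMO1, genes of pipecolic acid metabolism in systemic immunity, were the seedling-high members, at 0.0881 ± 0.11 and 0.0246 ± 0.043 CPM in axils, against 0.541 ± 0.039 and 0.409 ± 0.15 CPM in seedlings. Of the 6 axil-high genes, 1 passed 4-fold without overlap in Decapitated_WT against rac-GR24 and 5 in Intact_brc1-2 against rac-GR24. Of the 2 seedling-high genes, 1 and 0 passed in these contrasts.

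In the flavonoid and anthocyanin list, 7 of 21 genes were axil-high, 14 were not called and none was seedling-high. The list summed to 769 to 779 CPM in axils and to 693 to 763 CPM in seedlings. DFR, which encodes dihydroflavonol reductase, had 97.6, 100.3 and 96.4 CPM in axils, against 9.20, 9.68 and 9.59 CPM in seedlings (10.3-fold). LDOX, the next step, had 88.1, 85.2 and 85.6 CPM in axils, against 8.33, 10.7 and 12.02 CPM in seedlings (8.35-fold). UF3GT, GSTF12 and 5MAT, which modify anthocyanins or help to carry them to the vacuole, had 18.6 ± 1.2, 45.8 ± 0.62 and 22.8 ± 1.8 CPM in axils, against 2.12 ± 0.55, 6.41 ± 0.66 and 3.92 ± 0.59 CPM in seedlings. F3H was axil-high at 2.56 ± 0.27 CPM, against 0.0611 ± 0.031 CPM in seedlings, with 93.8% of its exon bases shared with another gene. Early genes of the pathway had higher values in seedlings but stayed short of 4-fold, with 237 ± 5.1 CPM in axils and 376 ± 24 CPM in seedlings for CHS, chalcone synthase, 31.9 ± 1.4 CPM in axils and 65.0 ± 2.6 CPM in seedlings for CHI, the next step, and 62.1 ± 1.0 CPM in axils and 165 ± 7.3 CPM in seedlings for FLS1, flavonol synthase. Of the 7 axil-high genes, 1 passed in each contrast with rac-GR24 seedlings, where DFR had 47.9, 44.3 and 46.4 CPM and LDOX 57.6, 51.3 and 53.3 CPM.

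The list of abscisic acid responses had 6 axil-high and 3 seedling-high genes of 28. RD20, a caleosin gene used as a marker of the hormone, had 61.9, 63.8 and 59.1 CPM in axils, against 8.10, 7.498 and 8.24 CPM in seedlings (7.76-fold). ABI5, a bZIP transcription factor of the response, had 5.64, 5.61 and 5.20 CPM in axils, against 0.408, 0.192 and 0.180 CPM in seedlings (21.1-fold). KIN2 and COR15A, cold- and abscisic acid-regulated genes, had 369.9 ± 8.4 and 42.7 ± 1.3 CPM in axils, against 74.4 ± 10.2 and 6.40 ± 2.6 CPM in seedlings. None of the 6 axil-high members passed 4-fold in either of the contrasts with rac-GR24 seedlings. RD20 had 18.23, 15.3 and 17.9 CPM in Decapitated_WT, 26.9, 27.2 and 26.1 CPM in Intact_brc1-2 and 27.7, 19.4 and 23.4 CPM in rac-GR24 seedlings. LTI30, ABI3 and HAI3 were the seedling-high members, with LTI30, a dehydrin gene, at 6.19 ± 1.1 CPM in axils and 36.4 ± 7.0 CPM in seedlings.

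Root hair genes were higher in seedlings almost throughout. Of 19 listed, 18 passed the filter, 17 were seedling-high and none was axil-high, with a median log2 ratio of -6.28. In 8 of the 19 no Intact_WT library held a count. XTH14, a xyloglucan-modifying enzyme gene of root hairs, had 2, 0 and 0 counts in axils, against 548, 595 and 940 counts in seedlings, a ratio of axils to seedlings of 0.000651 (95% counting interval 7.88e-05 to 0.00236). EXPA7, an expansin gene of root hair cells, had no count in axils, against 6.82, 10.1 and 7.47 CPM in seedlings, at least 439-fold higher in seedlings. RHD6 and RSL4, transcription factor genes that start root hair growth, also had no count in axils, against 1.57, 1.79 and 2.48 CPM and 0.990, 2.11 and 1.71 CPM in seedlings. The defining markers were therefore at or near 0 in axils. COBL9 had 0, 0.0349 and 0.0369 CPM in axils, against 4.37, 4.17 and 5.67 CPM in seedlings (198-fold higher in seedlings), and RHD2, an NADPH oxidase gene, had 1.03, 1.52 and 1.11 CPM in axils, against 16.7, 21.2 and 19.9 CPM in seedlings (15.8-fold). CSLD3, a cellulose-synthase-like gene needed for root hair growth, was the exception, with 35.5 ± 1.6 CPM in axils and 97.7 ± 4.8 CPM in seedlings.

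Endodermis and suberin genes followed, with 12 of 18 that passed the filter seedling-high. CASP1, a membrane protein that lays out the Casparian strip, had 0.158, 0.209 and 0.258 CPM in axils, against 25.9, 25.7 and 24.2 CPM in seedlings (121-fold higher in seedlings; log2 -7.00 ± 0.15; edgeR adjusted p = 2.9e-14). ABCG6, a transporter gene of suberin formation, had 0.376, 0.871 and 0.627 CPM in axils, against 41.9, 38.7 and 35.4 CPM in seedlings (61.9-fold), and CASP2 to CASP5 were seedling-high as well. Suberin enzyme genes were lower in axils but detected there, ASFT with 4.17 ± 0.28 CPM in axils and 78.8 ± 4.2 CPM in seedlings and CYP86A1 with 3.17 ± 0.53 CPM in axils and 39.1 ± 2.2 CPM in seedlings. SHR and SCR, radial patterning genes also active in shoots, had 26.7 ± 0.91 and 35.5 ± 1.9 CPM in axils, against 21.9 ± 0.89 and 28.6 ± 1.0 CPM in seedlings. ESB1 went against the list, with 1.63 ± 0.19 CPM in axils and 0.160 ± 0.18 CPM in seedlings, and 84.3% of its exon bases are shared with another gene. Of the 17 members inside the restricted gene set, 12 were seedling-high and none axil-high.

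In the list of root tip, cortex and lateral root genes, 10 of 17 that passed were seedling-high and 1 was axil-high. LBD16, a lateral root gene, had 2, 0 and 0 counts in axils, against 85, 80 and 108 counts in seedlings, a ratio of axils to seedlings of 0.00497 (95% counting interval 0.000599 to 0.0181). PLT1 and PLT2, which maintain the root stem cell niche, had 0.0116 ± 0.020 and 0.0116 ± 0.020 CPM in axils, against 1.09 ± 0.43 and 0.912 ± 0.27 CPM in seedlings. PYK10, a β-glucosidase gene of root ER bodies, was the most abundant member at 2667, 2779 and 3095 CPM in seedlings, but still had 319, 321 and 302 CPM in axils. The axil-high entry AT1G62500, for which the reference gives no symbol, had 210.3, 193 and 214 CPM in axils, against 8.91, 10.6 and 11.4 CPM in seedlings.

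The list of root ion and water uptake, which holds transporters, aquaporins and the enzymes and regulators of iron uptake, had 14 seedling-high genes and 1 axil-high gene among the 22 that passed. PHT1;1, a phosphate transporter gene, had 0.198, 0.488 and 0.590 CPM in axils, against 211, 194 and 182 CPM in seedlings (460.1-fold higher in seedlings). IRT1, the iron uptake transporter gene, had 0.317, 0.453 and 0.553 CPM in axils, against 98.2, 70.1 and 69.5 CPM in seedlings (179.8-fold). TIP2;3, a tonoplast aquaporin gene, had 0.119, 0 and 0.0553 CPM in axils, against 64.8, 68.4 and 56.8 CPM in seedlings (1092-fold), and AMT1;3, an ammonium transporter gene, had 0.515, 0.627 and 0.608 CPM in axils, against 48.8, 62.2 and 57.8 CPM in seedlings. All of these were under 1 CPM in every axil library. The iron regulator genes FIT and BHLH038, the second with 35.7% of its exon bases shared with another gene, had 1.59 ± 0.34 and 0.0123 ± 0.021 CPM in axils, against 23.1 ± 3.8 and 10.2 ± 0.78 CPM in seedlings. BOR1, a boron exporter gene that also works in shoots, was axil-high with 182 ± 9.1 CPM in axils and 33.0 ± 0.58 CPM in seedlings. Of 14 phosphate starvation genes, 4 were seedling-high, among them the transporter gene PHT1;4 with 2.36 ± 0.046 CPM in axils and 68.7 ± 5.0 CPM in seedlings and the phosphate sensor gene SPX1 with 13.9 ± 0.26 CPM in axils and 73.4 ± 7.4 CPM in seedlings. Of these 4 genes, 1 passed 4-fold without overlap in Decapitated_WT against rac-GR24 and 2 in Intact_brc1-2 against rac-GR24.

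Of 14 listed seed reserve genes and enzymes that mobilise stored oil, 8 passed the filter and 6 of these were seedling-high. In 8 of the 14 no Intact_WT library held a count, and such genes could pass the filter only through DMSO counts. The list summed to 562 to 573 CPM in axils and to 252 to 324 CPM in seedlings. ICL, isocitrate lyase of the glyoxylate cycle, had 0.158, 0.139 and 0.129 CPM in axils, against 17.7, 7.31 and 37.0 CPM in seedlings (145-fold higher in seedlings), and MLS, malate synthase of the same cycle, had 0.435, 0.139 and 0.221 CPM in axils, against 9.58, 5.70 and 9.83 CPM in seedlings (31.6-fold). DMSO libraries differed widely for ICL, from 7.31 to 37.0 CPM, yet all lay above the axil libraries. The cruciferin gene CRC had no count in axils, against 1.75, 1.54 and 1.67 CPM in seedlings. PCK1, which encodes an enzyme of gluconeogenesis, had 569 ± 6.0 CPM in axils and 249 ± 21 CPM in seedlings, short of 4-fold. Of the genes induced by dark and sugar starvation, SEN1 and DIN10 were seedling-high, with 6.91 ± 0.80 CPM in axils and 52.9 ± 9.7 CPM in seedlings for SEN1 and 18.6 ± 0.97 CPM in axils and 121 ± 6.2 CPM in seedlings for DIN10, as was DIN2. AKINBETA1, a regulatory subunit gene of the SnRK1 energy-sensing kinase, was the axil-high member, with 35.3 ± 1.5 CPM in axils and 5.88 ± 1.0 CPM in seedlings. DRM1, a dormancy-associated gene of buds, had 35.4 ± 1.3 CPM in axils and 12.4 ± 0.99 CPM in seedlings, and the histone gene HIS1-3 had 19.2 ± 0.17 CPM in axils and 9.47 ± 0.84 CPM in seedlings. Leaf senescence genes were also divided, with 1 of 16 axil-high and 4 seedling-high, beside 7.6% and 8.56% of all genes tested. SAG13 had 19.4 ± 1.3 CPM in axils and 0.439 ± 0.24 CPM in seedlings. SAG29, a sugar transporter gene, had 0.929 ± 0.14 CPM in axils and 20.5 ± 3.0 CPM in seedlings. The seedling-high WRKY6 and ORE1 lay at the limit and fell short of 4-fold when some libraries were left out. The log2 ratio of WRKY6 was -1.95 without Intact_WT replicate 3, and that of ORE1 was -1.92 without Intact_WT replicate 1. Early light-induced genes were seedling-high, ELIP1 with 13.1 ± 0.97 CPM in axils and 121 ± 9.6 CPM in seedlings and ELIP2 with 6.64 ± 0.28 CPM in axils and 89.3 ± 3.4 CPM in seedlings.

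Several lists held few calls at the 4-fold level or none, beside 7.6% axil-high and 8.56% seedling-high over all genes tested. None of 30 photosynthesis genes was called in either direction, and they summed to 82457 to 82994 CPM in Intact_WT libraries and to 98806 to 108491 CPM in DMSO libraries. None of 23 cell cycle genes was called, with a sum of 799 to 809 CPM in axils and 794 to 870.3 CPM in seedlings. The G2/M cyclin gene CYCB1;1 had 10.1 ± 0.90 CPM in axils and 9.80 ± 2.2 CPM in seedlings. None of 11 stomatal lineage genes was called, and 1 of 9 phloem genes was, the sugar exporter gene SWEET11 with 16.3 ± 0.056 CPM in axils and 151 ± 7.8 CPM in seedlings. The lists of heat shock genes (1 axil-high and 2 seedling-high of 8), clock genes (1 and 2 of 18) and nitrate genes (1 and 1 of 15) held few calls. Among 24 listed subunits of NF-Y, the CCAAT-binding factor named in the study's title, NF-YB3 was axil-high with 41.3, 39.6 and 38.5 CPM in axils, against 4.19, 3.91 and 4.93 CPM in seedlings (9.17-fold) and NF-YB7 was seedling-high with 0.210 ± 0.15 CPM in axils and 1.31 ± 0.76 CPM in seedlings. NF-YB11, a subunit gene that the list left out and that was added after its values were seen, had 25.3, 24.9 and 27.2 CPM in axils, against 0.175, 0.160 and 0.203 CPM in seedlings (144-fold; log2 7.03 ± 0.15; edgeR adjusted p = 3.1e-14), so that NF-YB3 was not the only axil-high subunit. NF-YB11 had 34.1, 30.6 and 32.3 CPM in Decapitated_WT, 26.9, 27.2 and 28.8 CPM in Intact_brc1-2 and 0.143, 0.105 and 0.360 CPM in rac-GR24 seedlings. Polycomb and demethylase genes included 1 call of 15, the seedling-high MEA with 0.0330 ± 0.057 CPM in axils and 0.915 ± 0.24 CPM in seedlings.

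Of the wall and surface lists, secondary wall genes were axil-high in 3 of 25 and seedling-high in none. Over all genes tested, 7.6% were axil-high and 8.56% seedling-high, and the counts of the wall and cuticle lists were not read as a property of either list. FLA12, a fasciclin-like arabinogalactan protein gene of fibres, had 25.1 ± 0.22 CPM in axils and 1.00 ± 0.21 CPM in seedlings, while NST1 and SND1, NAC genes that switch on fibre wall formation, had 1.46, 1.05 and 1.16 CPM and 0.277, 0.261 and 0.645 CPM in axils, and no count in seedlings. Cuticle genes were axil-high in 4 of 25 and seedling-high in 1. MAH1, which hydroxylates wax alkanes in stems, had 811, 934 and 943 counts in axils, against 2, 0 and 0 counts in seedlings, a ratio of 912 (95% counting interval 252 to 7531). PDF1, an epidermis gene, had 553 ± 19 CPM in axils and 52.2 ± 2.0 CPM in seedlings. The seedling-high LTP2 rested on DMSO replicate 3 for its fold, with 28.1, 25.01 and 28.3 CPM in axils, against 99.5, 87.0 and 241 CPM in seedlings, and its log2 ratio without that library was -1.78, short of 4-fold.

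**Figure D4:**
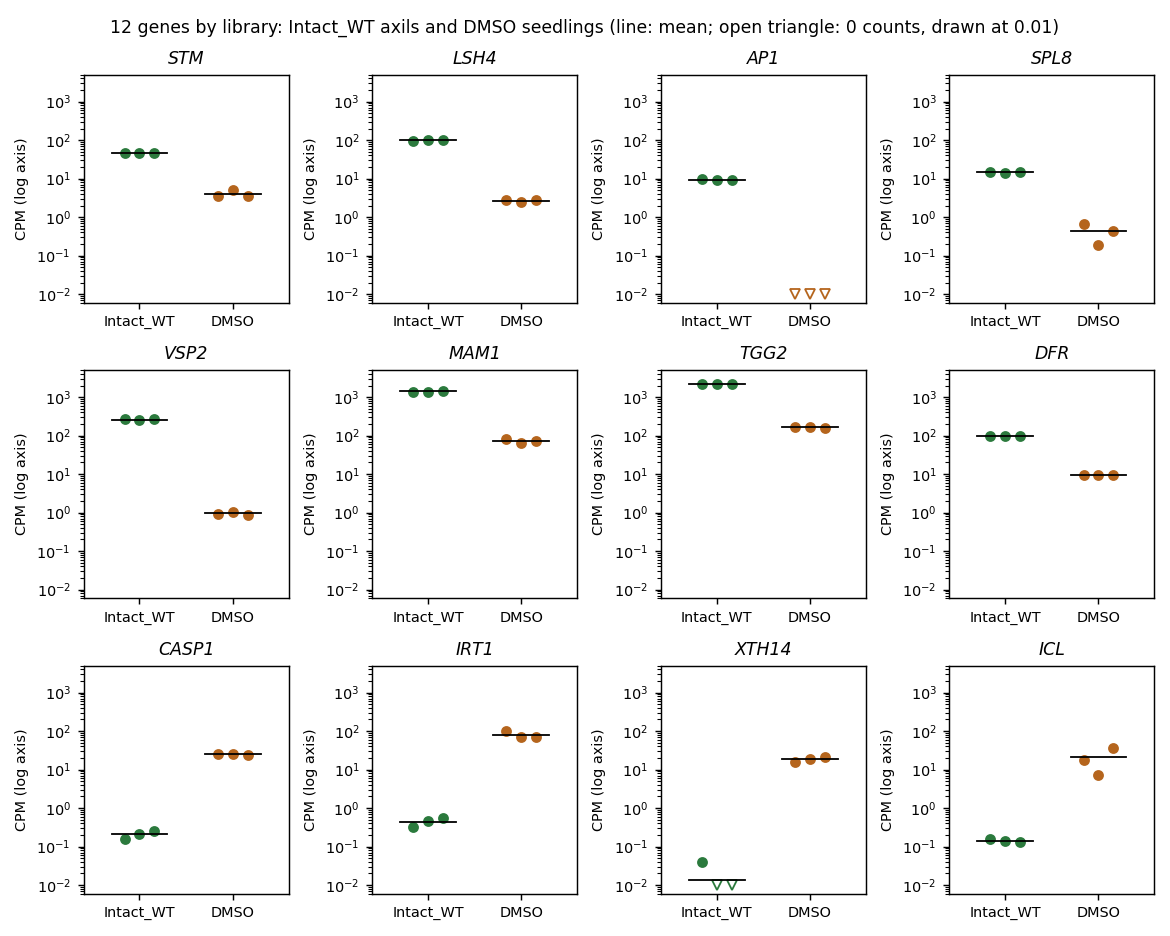
Points are the CPM (log axis) of the 3 Intact_WT and 3 DMSO libraries for 12 genes named in the text, with lines at the group means and open triangles for libraries with 0 counts. STM, LSH4, AP1, SPL8, VSP2, MAM1, TGG2 and DFR are higher in every axil library, and CASP1, IRT1, XTH14 and ICL in every seedling library, with the widest spread in ICL, from 7.31 to 37.0 CPM in DMSO.

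**Figure D5:**
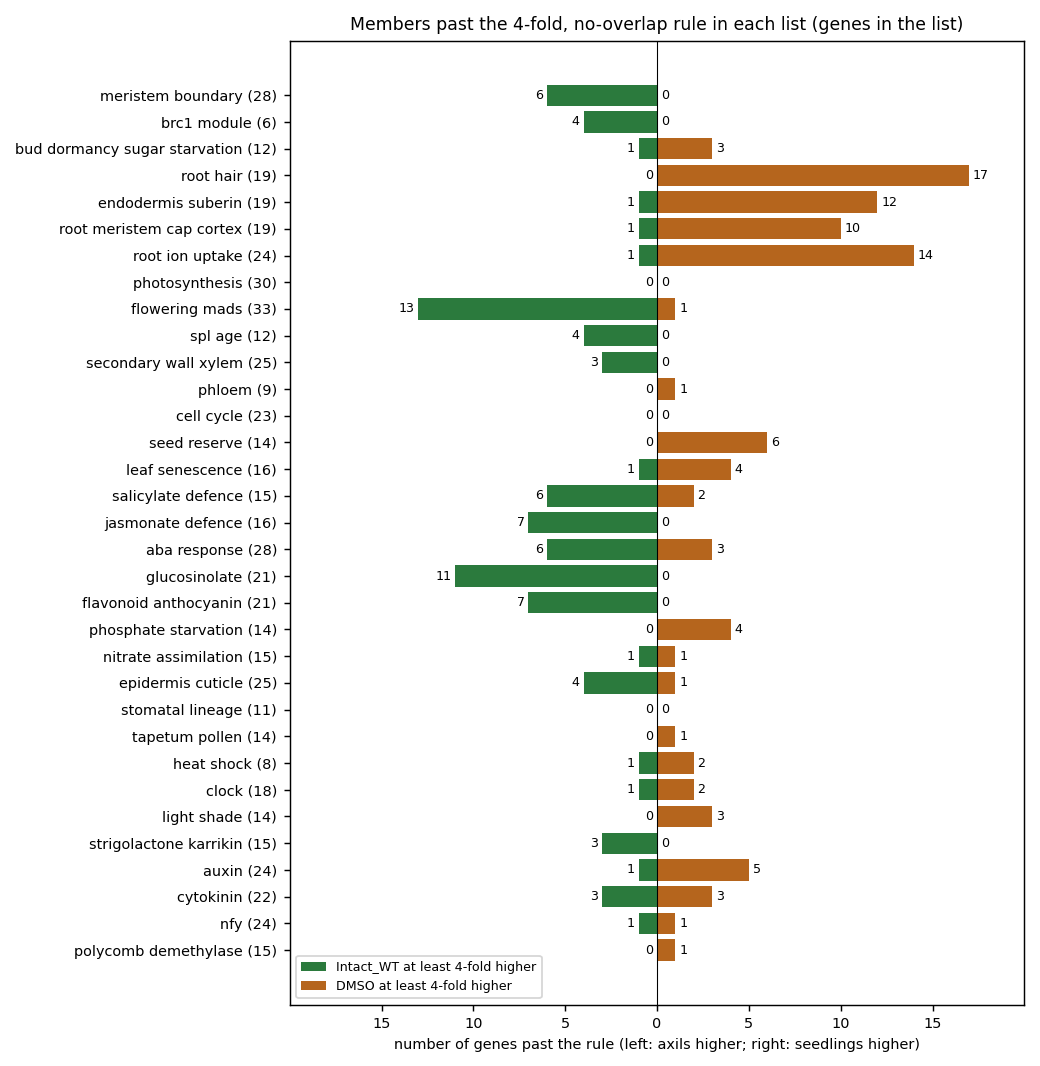
Bars give, for each of 33 gene lists, the number of members that were axil-high (to the left) and seedling-high (to the right), with the number of genes in the list in parentheses. Flowering (13) and glucosinolate genes (11) lead on the axil side, root hair (17), ion uptake (14) and endodermis genes (12) on the seedling side, and photosynthesis, cell cycle and stomatal lineage genes have none.

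The 12 axil-high genes of largest fold with at least 5 CPM were led by JAL23. JAL23, a jacalin-related lectin gene, had 545, 542 and 545 CPM in axils, against 0.0291, 0.128 and 0.135 CPM in seedlings (5582-fold; log2 12.27 ± 0.12; edgeR adjusted p = 5.9e-17). TCP1, the third gene of the BRC1 branch of the TCP family, had 1733, 1851 and 1805 counts in axils, against 0, 0 and 2 counts in seedlings, a ratio of 1828 (95% counting interval 506 to 15094). LSH2, of the same family as LSH4, had 9.54, 10.7 and 11.1 CPM in axils, against 0, 0 and 0.0450 CPM in seedlings. NATA1, an acetyltransferase gene of ornithine metabolism, had 47.4, 47.6 and 48.2 CPM in axils, against 0.117, 0 and 0.0900 CPM in seedlings (694-fold). Of the rest of the leading 12, AT5G59305 had 24.2, 24.3 and 24.1 CPM in axils and no count in seedlings, and MAH1 is given above. The other 6, AGP21, AT3G07555, AT1G21770, AT2G35750, AT4G22505 and AT1G51400, share between 44.4% and 92.3% of their exon bases with another gene.

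The leading seedling-high genes were in part genes of iron and zinc nutrition. bHLH39, an iron deficiency regulator gene, had 2, 0 and 0 counts in axils, against 1026, 780 and 836 counts in seedlings, a ratio of axils to seedlings of 0.000513 (95% counting interval 6.21e-05 to 0.00186). ZIP2, a gene of the zinc and iron transporter family, had 0.0396, 0 and 0.0369 CPM in axils, against 37.7, 40.4 and 43.8 CPM in seedlings (1594-fold higher in seedlings). Another 5 of the 12 had locus tags starting AT2G07, of which AT2G07727 had the largest ratio, with 0, 0.0174 and 0.0369 CPM in axils, against 292, 281 and 316 CPM in seedlings. AT3G63052, AT2G16586, AT5G04960 and AT2G25980 have no symbol in the reference, and AT3G63052, which had the largest ratio among them, read 0, 0 and 0.0737 CPM in axils, against 179.9, 133 and 181 CPM in seedlings. AT4G04565, annotated as a long noncoding RNA, had 0.554, 0.854 and 0.627 CPM in axils, against 4565, 3797 and 3815 CPM in seedlings.

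Ranked by level per length (TPM, which scales counts by gene length to the same sum in every library), the axil-high genes were led by common metabolic and stress proteins. TCTP, the translationally controlled tumour protein gene, averaged 3806 TPM in axils, against 514 TPM in seedlings. The peroxidase gene PRXR1 averaged 3669.8 TPM in axils, against 583 TPM in seedlings. The metallothionein gene MT3 averaged 3265 TPM in axils, against 240.3 TPM in seedlings. The glutathione transferase genes GSTF9 and GSTU20 averaged 2514 and 2467 TPM in axils, against 465 and 219.9 TPM in seedlings, and TGG2 averaged 1659 TPM in axils, against 135 TPM in seedlings. On the seedling side the same ranking gave 3 short RNA genes among 6. After AT4G04565 came the snoRNA gene AT2G04965, AT7SL-1, which is named for 7SL RNA but annotated as protein coding in the reference, the miRNA gene MIR4228, AT2G31141 (36.6% of exon bases shared) and the snoRNA gene AT5G02565. AT7SL-1 had 108, 117 and 104 CPM in axils, against 4393, 4026 and 3991 CPM in seedlings, and AT2G04965 had 2.69, 2.95 and 2.03 CPM in axils, against 625, 411 and 454 CPM in seedlings.

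Protein families were found by keywords in the reference's symbols and synonyms, so unnamed members were missed, and their shares stand beside 7.6% axil-high and 8.56% seedling-high over all genes tested. Arabinogalactan protein genes were axil-high in 18 of 41 (43.9%) and seedling-high in 6 (14.6%). MADS-box genes were axil-high in 10 of 41 (24.4%) and seedling-high in 4 (9.76%). Extensin and proline-rich protein genes were axil-high in 5 of 30 (16.7%) and seedling-high in 13 (43.3%). Xyloglucan endotransglucosylase genes were axil-high in 1 of 30 (3.33%) and seedling-high in 11 (36.7%), and cytochrome P450 genes were axil-high in 20 of 164 (12.2%) and seedling-high in 41 (25%). Glycosyltransferase genes were axil-high in 3 of 52 (5.77%) and seedling-high in 14 (26.9%). Leucine-rich repeat kinase or receptor genes were axil-high in 18 of 91 (19.8%) and seedling-high in 11 (12.1%). Further families held 3 axil-high and 5 seedling-high of 28 peroxidase genes, 12 and 17 of 100 MYB genes and 3 and 4 of 24 expansin genes. None of 12 NB-ARC genes was called in either direction. The median exon length was 1306 bases for axil-high and 1437 bases for seedling-high genes, against 1727 bases over all genes tested. By chromosome, between 7.31% and 8.09% of tested genes were axil-high, and between 7.83% and 10.7% were seedling-high, with the highest share on chromosome 2, where the AT2G07 genes lie.

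The profiles were then read in 9 libraries that the calls had not used, which carry the same split of tissue, age and batch. Of the axil-high genes, 1224 (74.0%) passed the fold and overlap rule in Decapitated_WT against rac-GR24 and 1194 (72.2%) in Intact_brc1-2 against rac-GR24; of all genes tested, 7.95% and 7.55% did so. Of the seedling-high genes, 1624 (87.2%) and 1592 (85.5%) passed in these contrasts, where 10.1% and 9.53% of all genes tested did. These 2 contrasts share the rac-GR24 libraries. The lists differed in this: all 17 root hair and all 12 endodermis genes, all 13 flowering genes and all 4 SPL genes passed in both contrasts, whereas none of the 6 axil-high abscisic acid genes passed in either.

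In 12 genes the direction turned round past 4-fold without overlap in at least 1 of the other contrasts. CWINV5, a cell wall invertase gene, had 1.35, 1.66 and 1.40 CPM in Intact_WT axils, against 0.0874, 0.128 and 0.135 CPM in DMSO seedlings, but 0.857, 0.637 and 0.548 CPM in Decapitated_WT and 12.7, 12.9 and 13.7 CPM in rac-GR24 seedlings. Rap2.6L, an ERF transcription factor gene, had 0.871, 1.203 and 0.829 CPM in Intact_WT axils, against 5.71, 6.38 and 6.05 CPM in DMSO seedlings, but 46.9, 45.6 and 46.8 CPM in Decapitated_WT and 8.95, 8.80 and 9.13 CPM in rac-GR24 seedlings. LTP3, a lipid transfer protein gene, had 29.5, 30.3 and 29.1 CPM in Intact_WT axils, against 2.62, 1.79 and 5.49 CPM in DMSO seedlings, but 2.77, 2.83 and 3.48 CPM in Decapitated_WT and 17.0, 17.76 and 22.4 CPM in rac-GR24 seedlings. SWEET3, a sugar transporter gene, had no count in Intact_WT or Decapitated_WT axils, against 0.524, 0.577 and 0.540 CPM in DMSO seedlings, but 1.801, 1.96 and 1.72 CPM in Intact_brc1-2, against 0.0954, 0.0527 and 0.420 CPM in rac-GR24 seedlings. BRC1 and HB53, given above, turned round in Intact_brc1-2 against rac-GR24. For BRC1 this contrast cannot tell tissue from the mutation, which lies in BRC1 itself. The rest were AT1G64795, AMS, PAP14, AT3G17520, AT3G17675 and AT5G05220. Genes named in this paragraph were chosen after their values were seen.

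The 4-fold limit cuts through a continuous range of ratios. The axil-high genes nearest to it were HL and AT3G24450, both 4.01-fold, and the nearest genes outside were BOP2, a boundary gene, and AT4G24015, both 3.99-fold. On the seedling side, AT1G60095 and AT1G36622 lay just inside, and AT1G10300 and PAO4 (3.99-fold) just outside.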

How the data were processed

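Paired-end RNA-seq libraries of axillary tissue and of whole seedlings were available as 2 tables of raw counts per gene, deposited by the authors. Per the submitters' processing notes, the tools included cutadapt 3.5, fastp 0.23.1, HISAT2 2.0.5, SAMtools 1.13, featureCounts 2.0.1 and DESeq2 1.32.0, with the genome build TAIR10; which tool made which table, the strand setting and the treatment of multiply mapped reads are not given in the sources used here. Of 32833 genes listed for axillary tissue, 32224 were complete in the seedling table and were used. The 609 genes not shared, from chromosome 4 (324) and the mitochondrial (152) and plastid (133) genomes, were left out, as was 1 incomplete line. The 8 CUT&Tag samples were not used here. In counts from 1 to 20, even values made up 62.9% to 64.0% in Intact_WT and 69.0% to 71.8% in DMSO libraries, so counting errors may be understated if both mates of a pair were counted; counts were halved as an alternative.

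CPM and length-scaled TPM were computed from the deposited counts of shared genes. Counts were tested with edgeR 4.0.16 (R 4.3.3; filterByExpr with a minimum count of 10 and total of 15, TMM scaling, glmQLFit and glmQLFTest) on 3 Intact_WT and 3 DMSO libraries, with Benjamini-Hochberg adjustment over 21754 genes. A call needed an adjusted p below 0.05, a 4-fold ratio of mean CPM and no overlap of libraries. The common biological coefficient of variation was 7.44%. A group with no count was given 3 counts in all, as a floor, and where the lower group had 1 to 3 counts the ratio of counts is given with an exact 95% interval. No pair of libraries agreed within sampling noise (chi-square per degree of freedom 3.40 to 5.81 in Intact_WT and 11.8 to 19.0 in DMSO).

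The 33 gene lists (609 genes used of 614 written; 4 were dropped where the reference gave the identifier another name, 1 was not shared, and 6 have no symbol in the reference) and the members described were chosen with earlier results of these data known. Genes named were the 12 of largest CPM ratio in each direction with at least 5 CPM in the higher group, the 6 with the highest TPM, the genes around BRC1, and in each list mainly the called members of largest ratio, with others given as values. Symbols came from the RefSeq gene table, which held all 32224 shared genes and gave a symbol for 10803. Alternatives varied scaling, library total, filter, test, thresholds, fit, replicate block, halved counts and left-out libraries, and, added after the data were seen, a restricted gene set.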

Additional observations from a re-analysis of the deposited data

How the results depend on the processing

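The calls depended mainly on the fold threshold. With 8-fold in place of 4-fold, 886 genes were axil-high and 1292 seedling-high; with 2-fold, 3945 and 3176. Leaving out 1 library in turn gave between 1662 and 1824 axil-high and between 1935 and 2056 seedling-high genes. With fewer libraries the overlap criterion is easier to meet. Between 1560 and 1620 of the 1653 axil-high and between 1815 and 1840 of the 1862 seedling-high genes were kept. Under the other alternatives both counts lay within 1.5 times of 1653 and 1862. TMM scaling shifted the median log2 ratio by -0.094 and gave 1534 and 1948, with all 1534 among the 1653. The filter of 1 CPM in 3 libraries gave 1294 and 1266, and no filter gave 1886 and 2306. The DESeq2 test gave 1647 and 1861 and limma-voom 1653 and 1862. These tests replaced only the adjusted p and kept the fold and overlap criteria, so they could move few calls. Halved counts gave 1495 and 1621. The restricted gene set, added after the data were seen, gave 1167 and 1518. Deviations of libraries with the same number correlated at -0.0231, 0.0193 and -0.00364, so the numbers were not taken as pairs. The replicate block, which also replaced only the adjusted p, gave 1653 and 1862 and changed no call. Scaled by TMM, 1164 and 1159 axil-high and 1653 and 1613 seedling-high genes passed in Decapitated_WT and in Intact_brc1-2 against rac-GR24. Of 4499 values of 228 genes compared across alternatives, 4419 kept their direction and side of the limits and 0 turned round; HB40 (log2 ratio 1.59) and NCED3 (-1.30) passed at 2-fold. Below about 0.1 CPM, where 3 counts are the floor, differences were not detectable in DMSO libraries. The 6 libraries cannot separate tissue from age, batch or table.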

Other observations

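BXL3 and 5 members of the clock, nitrate and heat shock lists, which the counts above include, are given here with their values. They were chosen after their values were seen. BXL3, a gene of the β-xylosidase family, averaged 3.21 CPM in Intact_WT axils and 4134 CPM in DMSO seedlings, with a log2 ratio of -10.33. LUX, a gene of the evening complex of the circadian clock, had 27.87, 27.16 and 26.98 CPM in axils, against 5.33, 3.72 and 5.78 CPM in seedlings. FKF1, a blue-light photoreceptor gene that times flowering, had 0, 0 and 0.147 CPM in axils, against 1.31, 1.38 and 1.51 CPM in seedlings. The hour of harvest is not stated in the labels, and its part in the clock genes was not tested. The nitrate-related regulator genes LBD39 and HRS1 moved in opposite directions: LBD39 had 61.7, 60.5 and 59.6 CPM in axils, against 4.69, 6.34 and 6.46 CPM in seedlings. HRS1 had 1.86, 1.71 and 1.90 CPM in axils, against 10.8, 12.6 and 10.6 CPM in seedlings. HSP90.1, a chaperone gene induced by heat, had 4.26, 4.78 and 4.92 CPM in axils, against 36.8, 47.6 and 56.0 CPM in seedlings. In all 5 genes given by library, the libraries of the tissues did not overlap.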
